A study of Homo sapiens with 4 samples.

Results

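The DEAD and DEAH box helicases are RNA-remodelling enzymes, and their transcripts were followed here in keratinocytes labelled HaCaT, with and without silencing of the long noncoding RNA lnc-DC. Members were chosen by symbol, as genes named DDX or DHX followed by a number. Of 56 matching symbols, 5 were left out, namely 4 interferon-induced genes (DDX58, DDX60, DDX60L and DHX58) and DDX3Y. Of the remaining 51 genes, 48 reached a group mean of 1 FPKM, as did 12411 of the 58825 genes in the whole table, and these are the tested genes. The 3 below that limit were DDX4, DDX25 and DDX53, helicases of germ cells, none of which exceeded 0.01 FPKM in a library. The lowest gene that passed was DDX43, also known from testis and tumours, with group means of 1.92 and 2.63 FPKM, so no helicase lay close to the limit.

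The 4 libraries were polyadenylated RNA from cells labelled HaCaT, an established and immortal line of human keratinocytes. All cells grew in MEPICF500 medium with 1.2 mM calcium and received a lentivirus. In the control group (2 libraries) it carried the hairpin shNC, and in the knockdown group (2 libraries) the hairpin shlnc-DC. The labels do not say whether the replicates came from separate transductions, so every p-value measures only the spread between these libraries, and a single line with a single hairpin name per group limits the model.

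DEAD and DEAH box proteins use ATP to bind, separate or strip RNA and the proteins on it. They are named after a run of amino acids in their ATPase core. DEAD box members mostly prise apart short helices locally, whereas DEAH box members pull themselves along a strand and are often switched on by partner proteins with a G-patch. Different members act in splicing, ribosome assembly, mRNA export, translation and mRNA decay, and most dividing cells need many of them.

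Values are FPKM, fragment numbers scaled to transcript length and library total, which allow levels of different genes to be compared. Differences are given on the log2(FPKM + 1) scale as knockdown minus control, fitted with limma over all 12411 genes and adjusted by the Benjamini-Hochberg method. The targeted transcript, WFDC21P, stood at 2.15 and 2.76 FPKM in control and at 0.09 and 0.29 FPKM in knockdown cells (limma adjusted p = 0.0715). The mitochondrial share of summed FPKM was 41.2% and 41.9% with shNC and 28.1% and 26.8% with shlnc-DC. Of the keratinocyte markers, KRT5 (124 to 304 FPKM), SFN (167 to 318 FPKM) and TP63 (7.52 to 9.35 FPKM) were present. KRT15, KRT6A, ITGB4, DSG3, DSC3, PKP1 and PERP lay between 3.63 FPKM (KRT6A) and 36.04 FPKM (PERP). In contrast, KRT14 did not exceed 0.35 FPKM and KRT17 did not exceed 0.85 FPKM. The simple epithelial keratin KRT18 was abundant at 226 to 291 FPKM. KRT19 stood at 334 and 371 FPKM in control and 202 and 198 FPKM in knockdown libraries. KRT7, KRT8 and EPCAM lay between 93.32 FPKM (EPCAM) and 268.36 FPKM (KRT7). Other simple epithelium markers were near absent, with KRT20 at no more than 0.08 FPKM, VIL1 at no more than 0.02 FPKM and CDX2 at 0. The near absence of KRT14, a defining keratin of basal keratinocytes, goes against the label, and the identity of the line was not tested. The 12 keratinocyte markers summed to 737 and 803 FPKM in control and 423 and 469 FPKM in knockdown libraries, and the 8 simple epithelium markers to 1081 and 1159 against 918 and 902 FPKM. Fibroblast markers summed to 0.49 to 0.69 FPKM, melanocyte markers to 3.38 to 4.68 FPKM and immune markers to 13.4 to 13.9 FPKM. The melanocyte markers TYR and SOX10 and the immune markers PTPRC and CD207 were at 0, and the part of cell state in the differences below was not tested. In such bulk RNA, fewer cells of a type and less RNA per cell cannot be told apart.

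Helicase transcripts were mostly higher in the knockdown libraries, by small amounts, and none passed the adjusted threshold. The 48 genes summed to 747 and 728 FPKM in control and to 946 and 976 FPKM in knockdown libraries. Without mitochondrially encoded genes in the total, they made up 0.397% and 0.37% of summed FPKM in control and 0.485% in each knockdown library, so the groups did not overlap on that scale either. Of the 48, 42 lay above 0 and 6 below, while 61.4% of all tested genes lay above 0. After rescaling without mitochondrial genes, median centring and quantile normalization, 40, 39 and 38 helicases lay above 0. The shares of all tested genes above 0 were then 57.0%, 51.4% and 53.1%. In the main fit, the median log2 difference of the helicases was 0.34, against 0.09 over all tested genes. Over the 4 contrasts of a single knockdown with a single control library, the helicase median ran from 0.28 to 0.41 (SD 0.0589) and the median of all genes from 0.02 to 0.15.

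No helicase was called at an adjusted p under 0.05, where limma called 31 of 12411 genes (0.25%). At an unadjusted p under 0.05, 23 helicases were higher and 0 lower. The shares of all tested genes were 14.8% higher and 8% lower, against 47.9% of helicases higher. The adjusted p of those 23 lay between 0.0661 and 0.215. Both knockdown values lay above both control values for 35 helicases (72.9%, against 35.6% of all tested genes), and both lay below for 1 (against 19.2% of all tested genes). Without any 1 library, the helicase median log2 difference ran from 0.31 to 0.37 and the median of all tested genes from 0.05 to 0.12. With quantile normalization the count of 23 became 17 higher and 1 lower (DDX39B). The 17 were 35.4% of helicases, against 10.8% of all tested genes higher in that setting. With a stricter filter of 5 FPKM, which tests fewer genes, DDX39A passed with a limma adjusted p = 0.0485.

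**Figure D1:**
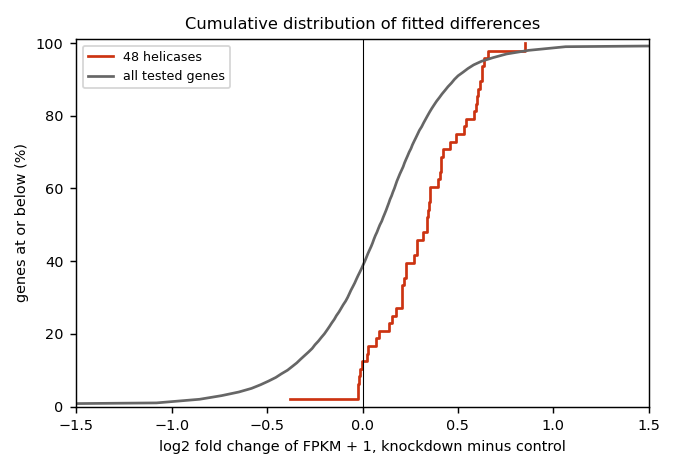
Cumulative share of genes (vertical axis, percent) at or below each log2 difference between knockdown and control (horizontal axis), for the 48 helicases (red steps) and all 12411 tested genes (grey line). The helicase line crosses the middle at 0.34 and the grey line at 0.09, and the helicases run from -0.38 to 0.85.

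Levels spanned a wide range. The most abundant helicase transcript was DDX21, with a mean of 78.5 FPKM over the 4 libraries, followed by DHX9 (65.99), DDX1 (56.5) and DDX5 (52.9). Neighbours in that order overlapped in their ranges over the 4 libraries. The median helicase had 12.3 FPKM, against 5.43 FPKM for all tested genes, and the lowest was DDX43 with 2.27. Replicates of a group were close for most members, with a median ratio of the higher to the lower library of 1.08 in control and 1.09 in knockdown. It was widest for DDX20 in control (2.01) and for DDX12P in knockdown (1.68).

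**Figure D2:**
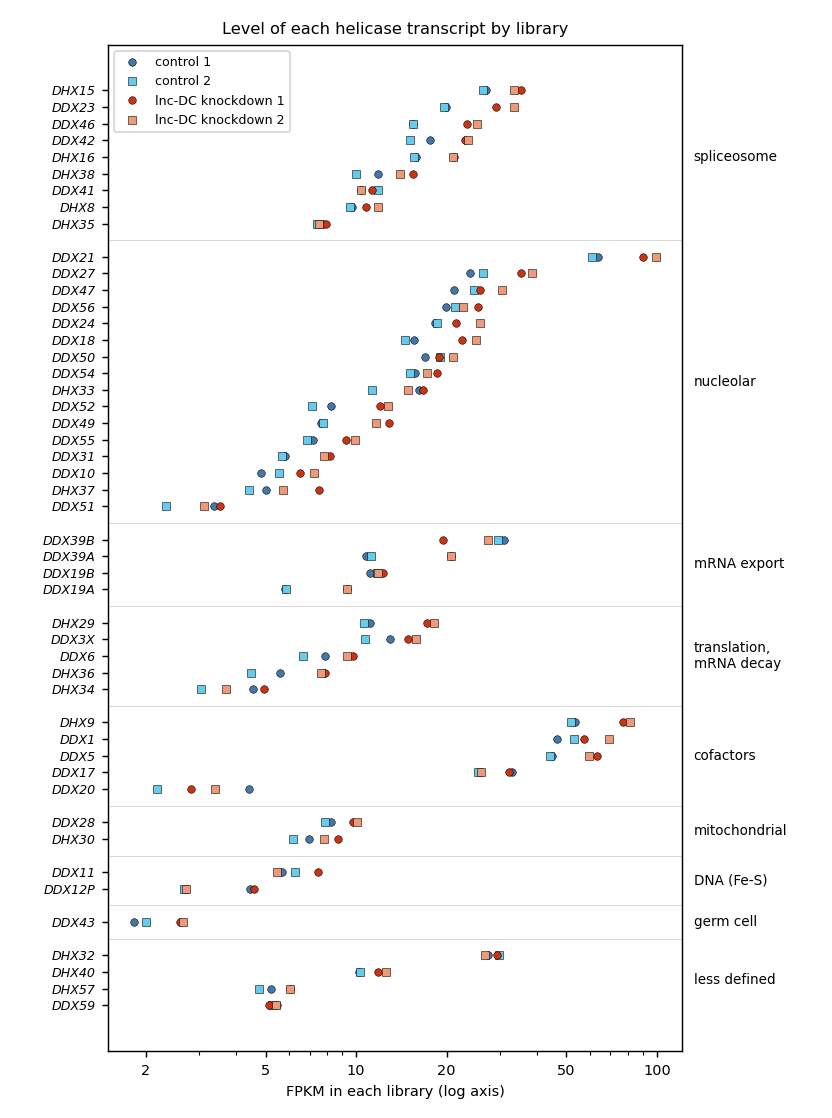
FPKM of each of the 48 helicases in each library on a log axis, grouped by role, with circles for replicate 1, squares for replicate 2, blue for control and red for lnc-DC knockdown. Most red points lie to the right of the blue points of the same gene, DDX39B is the gene with both red points to the left, and levels run from below 2 FPKM for DDX43 to 99.3 FPKM for DDX21.

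The helicases of messenger RNA packaging and export held both the largest positive and the largest negative difference. DDX39A and DDX39B are close paralogs that load export factors onto spliced mRNA as part of the TREX complex. DDX39A (ENSG00000123136, chromosome 19, 14408819 to 14419383, minus strand, GRCh38) had 10.79 and 11.17 FPKM in control and 20.68 and 20.60 FPKM in knockdown libraries. The knockdown values were nearly equal and well above both controls, at a ratio of means of 1.88 and a log2 difference of 0.85 (SE 0.1, limma adjusted p = 0.0661). Over the alternative settings this difference ran from 0.73 to 0.97.

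DDX39B (ENSG00000198563, chromosome 6, 31530219 to 31542448, minus strand) had 31.07 and 29.51 FPKM in control and 19.41 and 27.36 FPKM in knockdown libraries. Both knockdown values were lower, but they differed from each other by more than the second did from the controls, and the fitted difference was -0.38 (SE 0.185, adjusted p = 0.303), or -0.14 without knockdown replicate 1 and -0.62 without knockdown replicate 2. The readthrough gene ATP6V1G2-DDX39B shares 2079 exonic bases with DDX39B on the same strand. It was listed at 4.22 and 3.69 FPKM in control and at 30.32 and 9.81 FPKM in knockdown libraries, so the library with the least DDX39B held the most of the readthrough gene. Summed over DDX39B and the genes that share its exons, values were 35.3 and 33.2 FPKM in control and 49.9 and 37.3 FPKM in knockdown libraries, higher and not lower in the knockdown. How reads were divided between the genes is not given in the sources used here, so a direction for DDX39B cannot be read from its own row.

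DDX19A and DDX19B are neighbouring paralogs on chromosome 16 that strip export factors from mRNA at the cytoplasmic face of the nuclear pore. DDX19A had 5.80 and 5.84 FPKM in control and 9.34 and 9.30 FPKM in knockdown libraries, a log2 difference of 0.60 (SE 0.104, limma adjusted p = 0.0921). DDX19B had 11.14 and 11.69 FPKM in control and 12.29 and 11.78 FPKM in knockdown libraries, a difference of 0.07 (SE 0.104, adjusted p = 0.714) whose sign turned under median centring and quantile normalization. Thus the replicates of DDX19A were separated by a gap and those of DDX19B nearly touched. Of the stretches of 150 bases in their transcripts, 17.7% for DDX19A and 23.0% for DDX19B also occur in AC012184.2. That gene shares exons with both and was listed at 0 in all 4 libraries. Some stretches also occur in the paralog, but how many was not recorded, so whether reads were split between the pair is not known.

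**Figure D3:**
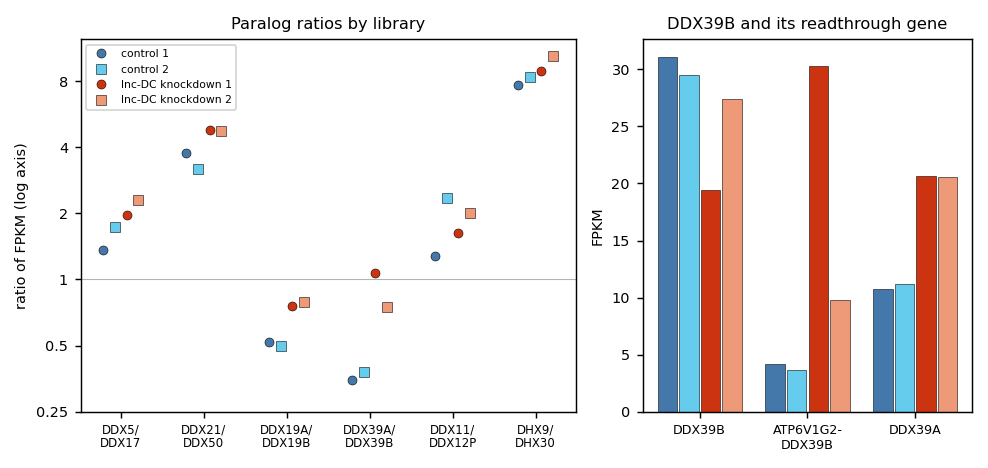
Left, ratio of FPKM of the first to the second paralog of 6 pairs in each library, on a log axis. Right, FPKM of DDX39B, its readthrough gene and DDX39A in each library. The DDX39A to DDX39B ratio is 0.347 and 0.379 in control and 1.07 and 0.753 in knockdown libraries, while the readthrough bars are highest in knockdown replicate 1.

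In 5 of the 6 paralog pairs examined, both knockdown ratios of the first to the second gene lay above both control ratios. The pairs and their order were set with earlier results of these data known, so the shared direction is no independent evidence. The share among other gene pairs was not computed. The DDX39A to DDX39B ratio was 0.347 and 0.379 in control and 1.07 and 0.753 in knockdown libraries, with the caution on DDX39B above. The DDX19A to DDX19B ratio was 0.521 and 0.5 in control and 0.76 and 0.789 in knockdown libraries, with the caution on shared stretches above. For DDX5 over DDX17 the ratio was 1.36 and 1.73 against 1.96 and 2.29, for DDX21 over DDX50 it was 3.75 and 3.2 against 4.78 and 4.73, and for DHX9 over DHX30 it was 7.67 and 8.39 against 8.89 and 10.4. The DDX11 to DDX12P ratios overlapped between groups. With 2 libraries against 2, an exact two-sided permutation test cannot give a p below 0.333, which was the value for each of the 5 pairs, so that test cannot call a difference between paralogs in this design, and no other test of the ratios was run.

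Spliceosome helicases drive the rearrangements that assemble, activate and take apart the splicing machinery. Of 9 members, 8 lay above 0, 7 had knockdown values above both controls, 6 had an unadjusted p under 0.05 in the higher direction, and none passed over all genes, with a median log2 difference of 0.41. The shares over all tested genes were 61.4% above 0, 35.6% with both knockdown values higher and 14.8% with an unadjusted p under 0.05 in the higher direction. DDX46, which remodels the branch-site particle early in assembly, had 15.46 and 15.45 FPKM in control and 23.33 and 25.21 FPKM in knockdown libraries (log2 difference 0.62, SE 0.105, limma adjusted p = 0.0884). DDX23, which helps hand the start of the intron over during activation, had 19.83 and 19.66 against 29.20 and 33.48 FPKM (0.64, SE 0.116, adjusted p = 0.0959). In both genes the control libraries were almost identical and the ratios of means were 1.57 and 1.59.

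The DEAH box members of the group act in sequence on the assembled machine. DHX16, needed just before the first chemical step, had 15.78 and 15.52 FPKM in control and 21.21 and 21.03 FPKM in knockdown libraries. DHX38, needed before the second step, had 11.78 and 10.02 against 15.50 and 14.01 FPKM, and DHX15, which takes apart spent spliceosomes, had 27.07 and 26.45 against 35.20 and 33.35 FPKM. DHX8, which releases the finished mRNA, differed less, with 9.67 and 9.52 against 10.77 and 11.86 FPKM. All 4 had knockdown values above both controls. DDX42, a helicase bound to the branch-site particle, had 17.55 and 15.08 against 23.01 and 23.55 FPKM. DDX41 (10.34 and 11.82 against 11.33 and 10.41 FPKM) and DHX35 (7.78 and 7.41 against 7.95 and 7.5 FPKM) overlapped between groups.

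Nucleolar helicases release small nucleolar RNAs and remodel precursors of both ribosomal subunits. All 16 lay above 0, with a median log2 difference of 0.38; 13 had knockdown values above both controls, 9 had an unadjusted p under 0.05 in the higher direction, and none passed over all genes. Of all tested genes, 35.6% and 14.8% met the same criteria and 61.4% lay above 0. Under quantile normalization, median centring and rescaling no member of this group changed sign, whereas DDX51 and DHX33 did without control replicate 2. DDX21, which links transcription by RNA polymerase I with rRNA processing, had 63.79 and 60.84 FPKM in control and 89.97 and 99.34 FPKM in knockdown libraries (log2 difference 0.59, SE 0.113, limma adjusted p = 0.0995). Its paralog DDX50 had 16.99 and 19.01 against 18.82 and 21.02 FPKM, with overlapping groups.

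Among factors of the small subunit, DDX49 had 7.67 and 7.77 FPKM in control and 12.90 and 11.66 FPKM in knockdown libraries (0.61, SE 0.111, limma adjusted p = 0.0959). DDX52 had 8.26 and 7.15 against 11.98 and 12.80 FPKM, and DDX10 4.81 and 5.56 against 6.51 and 7.27 FPKM. DHX37, which removes the U3 small nucleolar RNA, had 5.02 and 4.42 against 7.55 and 5.73 FPKM, and DDX47 21.19 and 24.57 against 25.78 and 30.49 FPKM. In these 5 the groups did not overlap, with limma adjusted p from 0.0959 for DDX49 to 0.307 for DDX47.

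Among factors of the large subunit or of both, DDX18 had 15.57 and 14.57 FPKM in control and 22.52 and 25.06 FPKM in knockdown libraries (0.62, SE 0.114, limma adjusted p = 0.0959). DDX27 had 23.94 and 26.39 against 35.21 and 38.30 FPKM, DDX31 5.78 and 5.68 against 8.18 and 7.83 FPKM, and DDX55 7.19 and 6.88 against 9.23 and 9.95 FPKM. These 4 had ratios of means between 1.36 and 1.58. DDX24 (18.22 and 18.51 against 21.48 and 25.72 FPKM), DDX54 (15.63 and 15.10 against 18.56 and 17.17 FPKM) and DDX56 (19.92 and 21.32 against 25.32 and 22.71 FPKM) were also higher in both knockdown libraries, by ratios of 1.16 to 1.29. DDX51 (3.37 and 2.34 against 3.52 and 3.12 FPKM) and DHX33, a helicase of rRNA transcription (16.21 and 11.27 against 16.68 and 14.90 FPKM), overlapped between groups.

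**Figure D4:**
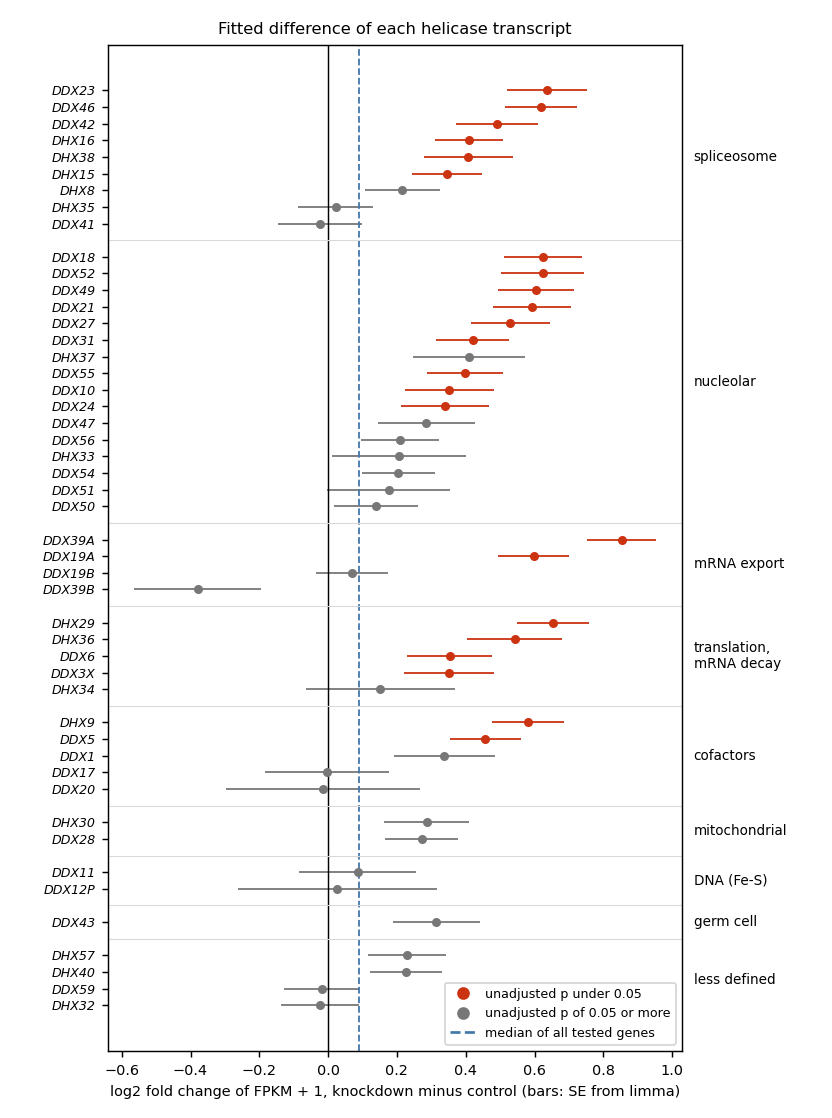
Log2 difference of each helicase between knockdown and control with its SE from limma, grouped by role; red marks an unadjusted p under 0.05, the solid line is 0 and the dashed line is the median of all tested genes (0.09). All 23 red points lie to the right of the dashed line, and DDX39B at -0.38 is the lowest, with the other 5 points below 0 between -0.02 and 0.

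Of 5 helicases of translation and mRNA turnover, 4 had an unadjusted p under 0.05 in the higher direction (14.8% of all tested genes), none passed over all genes, and the median log2 difference was 0.35. All 5 lay above 0 (61.4% of all tested genes), but the sign of DHX34 turned without control replicate 2 and without knockdown replicate 1. DHX29, which helps the small ribosomal subunit through structured leaders, had 11.08 and 10.59 FPKM in control and 17.14 and 18.13 FPKM in knockdown libraries (0.65, SE 0.105, limma adjusted p = 0.0836). DHX36, which unwinds G-quadruplexes, had 5.59 and 4.47 against 7.85 and 7.64 FPKM. DDX3X, a helicase of translation initiation, had 12.93 and 10.73 against 14.86 and 15.75 FPKM. DDX6, the core of the complexes that store mRNA and promote decapping, had 7.85 and 6.68 against 9.73 and 9.35 FPKM. In these 4 genes the groups did not overlap. DHX34, a factor of nonsense-mediated decay, had 4.55 and 3.05 against 4.93 and 3.68 FPKM and overlapped.

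The cofactors of transcription and RNA processing were divided. DHX9, which binds and unwinds double-stranded RNA, had 53.52 and 51.78 FPKM in control and 77.17 and 81.50 FPKM in knockdown libraries (0.58, SE 0.104, limma adjusted p = 0.0941). DDX5, a coregulator of transcription and a partner of the Microprocessor, had 44.71 and 44.10 against 63.18 and 59.48 FPKM (0.46, SE 0.103, adjusted p = 0.114). DDX17, its paralog in the same complexes, had 32.94 and 25.49 against 32.17 and 25.97 FPKM, where each replicate 1 library was high and each replicate 2 library low in both groups. DDX1, a member of the tRNA ligase complex, had 46.47 and 53.01 against 57.20 and 69.37 FPKM, without overlap. DDX20, which works with the SMN complex, had 4.39 and 2.18 against 2.82 and 3.40 FPKM, so the controls lay on either side of the knockdown values.

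The mitochondrial helicases DDX28 and DHX30, which assist mitochondrial ribosome assembly, were higher in both knockdown libraries. DDX28 had 8.25 and 7.87 FPKM in control and 9.78 and 10.09 FPKM in knockdown libraries, and DHX30 had 6.98 and 6.17 against 8.68 and 7.80 FPKM (limma adjusted p = 0.223 and 0.257). Their direction was opposite to that of the mitochondrial share of summed FPKM given above.

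The remaining members include genes of DNA maintenance, germ cells and less defined role. DDX11, an iron-sulfur DNA helicase of sister chromatid cohesion, had 5.66 and 6.26 FPKM in control and 7.45 and 5.45 FPKM in knockdown libraries. Its near-copy DDX12P had 4.44 and 2.67 against 4.57 and 2.72 FPKM, again high in each replicate 1, and 19.6% of its stretches of 150 bases occur in other genes, so reads may be split between the copies. DHX32 (27.33 and 29.81 against 29.40 and 26.81 FPKM) and DDX59 (5.44 and 5.25 against 5.13 and 5.41 FPKM), whose roles are less defined, overlapped between groups. DHX40 (10.25 and 10.26 against 11.80 and 12.55 FPKM), DHX57 (5.23 and 4.75 against 6.02 and 6.02 FPKM) and DDX43 (1.83 and 2.00 against 2.60 and 2.65 FPKM) were higher in both knockdown libraries, with limma adjusted p between 0.237 and 0.306.

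Base composition, length and shared sequence bear on how FPKM values are made. The median GC content of the longest transcript was 48.6%, against 47.9% for all tested genes, and its median length was 4335 bases, against 3202. Across the 48 genes, which are not independent replicates and come from the same 4 libraries, log2 differences correlated with GC content at a Pearson r of -0.09 and a Spearman rho of -0.17, against a rho of -0.22 across all tested genes. With log2 length the rho was 0.18 across helicases and 0.10 across all tested genes. With log2 mean FPKM it was 0.24 and 0.13. With GC and length removed, an alternative chosen after seeing the data, 43 helicases lay above 0 and the median was 0.27. Over all genes fitted that way, 61.4% lay above 0 and the median was 0.09. Of the 48, 40 shared no stretch of 150 bases with another gene of GENCODE 29, 8 shared exons with another gene on the same strand, and 24 were overlapped by exons on the opposite strand.

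The stretches before the start sites are shown for 4 helicases that were higher in both knockdown libraries. The 100 bases before the RefSeq start lay outside every exon of GENCODE 29 for 6 of 43 helicases, and these 4 had the smallest p among them. Capitals mark matches to the motifs searched on both strands: the CCAAT box (CCAAT or ATTGG), the GC box (GGGCGG or CCGCCC), the ETS core (CCGGAAG or CTTCCGG), the E-box (CACGTG), the TATA box (TATAAA or TTTATA) and the cyclic AMP response element, CRE (TGACGTCA), whose core TGACG (or CGTCA) was also counted. Sequences are from RefSeq on GRCh38.p14, 5′ to 3′ on the gene's strand. DDX39A lies at chr19:14419384-14419483 (minus strand), DHX9 at chr1:182839247-182839346 (plus strand), DHX15 at chr4:24584555-24584654 (minus strand) and DDX23 at chr12:48852164-48852263 (minus strand), the last inside the span of the gene in GENCODE 29 but in no exon.
DDX39A: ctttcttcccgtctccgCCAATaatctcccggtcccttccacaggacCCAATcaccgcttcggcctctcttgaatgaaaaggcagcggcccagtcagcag
DHX9: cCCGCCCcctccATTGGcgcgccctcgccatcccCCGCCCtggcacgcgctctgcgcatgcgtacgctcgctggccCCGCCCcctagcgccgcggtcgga
DDX23: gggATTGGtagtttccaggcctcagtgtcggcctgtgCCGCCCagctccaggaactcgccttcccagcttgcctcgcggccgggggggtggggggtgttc
DHX15: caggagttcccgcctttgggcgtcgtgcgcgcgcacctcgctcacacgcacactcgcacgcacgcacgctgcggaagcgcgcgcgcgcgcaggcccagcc

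Of these 4 stretches, 3 hold a CCAAT box, in 2 copies in DDX39A, and DHX9 and DDX23 also hold GC boxes. The stretch of DHX15 holds none of the motifs. Windows of 250 bases before the start were found for 43 of the 48 helicases. A CCAAT box was present in 44.2% of them, against 36.2% of the windows of 8542 tested genes and 32.0% of all 35116 windows. The ETS core was present in 15 helicase windows (34.9%), against 17.6% of tested genes and 8.52% of all windows. Of these 15 helicases, 8 had an unadjusted p under 0.05 in limma, near the share among all 43 (20), and the others included DDX39B and DDX50. Over all tested genes, 14.8% were higher and 8% lower at that limit. A CRE was present in 5 (11.6%), namely DDX10, DDX19A, DDX28, DDX51 and DHX36, against 3.04% and 1.65%, and its core in 39.5%, against 31.3% and 21.2%. The E-box was in 16.3%, against 9.14% and 6.34%. The GC box was less frequent than in tested genes (60.5% against 68.7%), and the TATA box was in 2 windows, DDX39B and DHX32. Among the 20 windows of helicases with an unadjusted p under 0.05 the ETS core share was 40%, the CRE share 15%, the CRE core share 50%, the CCAAT box share 45%, the GC box share 75%, the E-box share 10% and the TATA box share 0%. The GC box thus stood above the share of tested genes in these 20 windows and below it in all 43. These are matches of letters and describe the windows only.

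**Figure D5:**
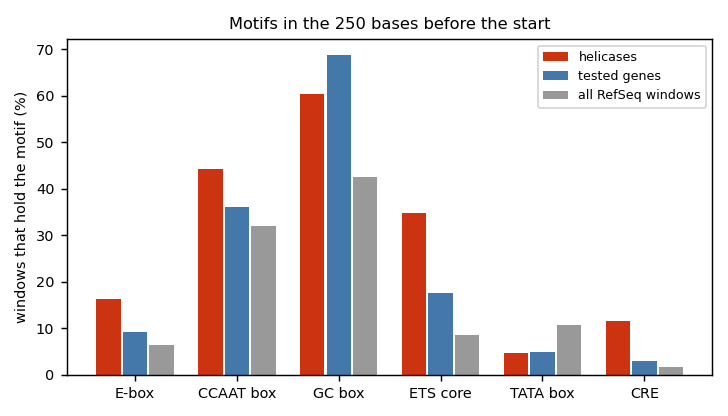
Share of windows of 250 bases before the start (vertical axis, percent) that hold each motif on either strand, for 43 helicases (red), 8542 tested genes (blue) and all 35116 RefSeq windows (grey). The ETS core stands at 34.9% in helicases, 17.6% in tested genes and 8.52% in all windows.

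Most transcripts of listed partners of the helicases, and of related helicases, also lay above 0. The 7 lists held 92 tested genes, of which 14 were related helicases under other names and not listed as partners. Of the 92, 81 lay above 0, and the median log2 difference was 0.26. In limma, 26 had an unadjusted p under 0.05 in the higher direction and 0 in the lower, 1 rose over all genes and none fell. Over all tested genes 61.4% lay above 0, 14.8% had an unadjusted p under 0.05 in the higher direction and the median was 0.09, and the counts of each list below stand against these shares. Of 18 tested partners of DDX39B and DDX19 in mRNA export, 1 rose, 17 did not pass and 15 lay above 0 (median 0.25). The one that rose was FYTTD1, an export adaptor that binds DDX39B, from 2.53 and 2.52 to 9.99 and 9.12 FPKM (log2 difference 1.58, SE 0.115, limma adjusted p = 0.0389). With any 1 library left out, 0 of all tested genes passed in limma, and 1781 to 2235 had an unadjusted p under 0.05. A lone library is then assumed to vary like the other group, and so general a loss of calls says little about FYTTD1 itself. NUP155, a scaffold protein of the nuclear pore, stood at 12.65 and 11.16 against 16.79 and 16.99 FPKM.

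Of 22 tested genes listed as G-patch activators of DEAH helicases, none passed over all genes and 21 lay above 0 (median 0.32). In the higher direction, 9 had an unadjusted p under 0.05. The list was not checked against protein domains. It includes TGS1, NAF1 and ZNF830, which are not known as G-patch proteins, and TGS1 and NAF1 are among the 9. NKRF, a nuclear repressor that works with DHX15 in rRNA processing, stood at 1.41 and 2.17 FPKM in control and 16.12 and 11.22 FPKM in knockdown libraries (2.39, SE 0.231, limma adjusted p = 0.055), just short of the threshold. GPATCH11 stood at 4.23 and 4.59 against 7.24 and 9.83 FPKM. Of 9 SMN complex partners of DDX20, none passed, 2 had an unadjusted p under 0.05 and 7 lay above 0 (median 0.22). GEMIN4, which binds DDX20 directly, stood at 10.06 and 8.93 against 18.48 and 16.99 FPKM (adjusted p = 0.0747), and GEMIN5, which recognises small nuclear RNAs, at 8.64 and 8.34 against 13.04 and 13.37 FPKM, while DDX20 itself overlapped between groups.

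In the other lists no gene passed over all genes. Of 13 tested partners of DDX6, 12 lay above 0 (median 0.23) and none had an unadjusted p under 0.05; PATL1, which bridges DDX6 and decapping, stood at 44.83 and 41.55 against 50.66 and 51.18 FPKM. Of 10 partners of DDX5, DDX17 and DHX9 in small RNA processing 9 lay above 0 (median 0.34), with the Microprocessor nuclease DROSHA at 12.10 and 10.45 against 14.73 and 14.31 FPKM. All 6 tRNA ligase partners of DDX1 lay above 0 (median 0.22), with FAM98B at 6.97 and 7.11 against 9.77 and 10.90 FPKM. Of 14 related helicases under other names 11 lay above 0 (median 0.25), with the mitochondrial helicase SUPV3L1 at 13.93 and 14.12 against 18.90 and 17.76 FPKM and EIF4A3, the DEAD box core of the exon junction complex, at 21.41 and 23.08 against 27.15 and 30.14 FPKM.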

How the data were processed

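RNA from 4 libraries labelled HaCaT, 2 control and 2 lnc-DC knockdown, had been sequenced after oligo(dT) selection, per the labels' protocols. The submitters' processing notes name HISAT2 2.0.4 and StringTie 1.3.4d beside cutadapt 1.9, edgeR and DESeq2, without their roles. The sources used here give neither the build, nor the annotation, nor how shared reads were assigned. The authors deposited FPKM values with 2 decimals and no counts. Since FPKM depends on a library's total, a few abundant transcripts can shift every other value. There were 0 value columns without a sample.

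The sequencing depth is unknown: at the best depth, 25.4% to 28.4% of low FPKM values times transcript length came within 0.1 of a whole read (median over depths 19.7% to 20.1%), and reads could not be recovered. With limma 3.58.1 (R 4.3.3), log2(FPKM + 1) of the 12411 genes that reached a group mean of 1 FPKM was fitted on group alone, with a mean-variance trend and no robust step. Tests were two-sided, adjusted by Benjamini-Hochberg, threshold 0.05. Ratios are of mean FPKM. Positions, lengths and exon overlaps are from GENCODE 29 (GRCh38), where 58552 of 58825 gene IDs were found; the windows before start sites are from RefSeq (GRCh38.p14).

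The members, role groups, partner lists and tests were chosen with earlier results of these data known, so the direction of the lists is no independent evidence. The rule for members named with library values was the 8 with the smallest p in each direction, the 5 with the highest mean and both genes of each paralog pair. Library values of the other members, planned as ranges, were added after they were seen. The readthrough gene ATP6V1G2-DDX39B and the helicases shown by sequence were chosen after their values were seen. Beyond WFDC21P and cell type markers, at most 2 genes with the smallest p were named with library values per list.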

Additional observations from a re-analysis of the deposited data

How the results depend on the processing

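Across 13 alternatives, 36 of 48 helicases kept their direction in every one, and of 619 single values 589 kept direction and side of the threshold, 29 changed sign and 1, DDX39A, passed only with the stricter filter (1 helicase past the threshold, 0 otherwise). The replicate numbers share no stated origin (same-numbered deviations correlated at 0.124 over all genes and 0.340 over the helicases). With the replicate block 0 genes and 0 helicases passed. An unadjusted p under 0.05 was then reached by 28 helicases, all higher (58.3%, against 20.1% of all tested genes higher). Genes past the threshold, 31 as reported (14 higher, 17 lower), numbered 0 with no filter, 58 with the stricter filter, 57 with quantile normalization (17 higher, 40 lower) and 0 to 0 without any single library. Helicases with an unadjusted p under 0.05 numbered 13 to 21 of 48 without a library, against 1781 to 2235 of the 12411 tested genes. In the fit without knockdown replicate 2 these helicases were not all higher. Each such fit leaves a lone library in a group, so these counts carry little weight. The helicase median of 0.34 became 0.26 with median centring, 0.21 with quantile normalization and 0.27 with GC and length removed (chosen after seeing the data). The median of all tested genes, 0.09 as reported, was 0.01, 0.02 and 0.09 in these settings. Signs turned for DDX12P (-0.0075 rescaled without mitochondrial genes, -0.053 median centred, -0.021 quantile normalized), DHX35 (-0.017, -0.058 and -0.084), DDX19B (-0.0095 and -0.047 in the last pair), DDX11 (-0.0022 quantile normalized) and DDX41 (0.032 with GC and length removed); median centring lowers every difference by the same amount, so it turns any value near enough to 0, and the cause of the other turns was not tested. Without a single library, the lone library of a group being assumed to vary like the other group, the signs of 11 helicases turned, over ranges of -0.11 to 0.28 for DDX11, -0.26 to 0.32 for DDX12P, -0.18 to 0.18 for DDX17, -0.39 to 0.37 for DDX20, -0.11 to 0.065 for DDX41, -0.018 to 0.37 for DDX51, -0.0496 to 0.015 for DDX59, -0.087 to 0.041 for DHX32, -0.038 to 0.45 for DHX33, -0.075 to 0.38 for DHX34 and -0.016 to 0.059 for DHX35. Depth is unknown, and 2 libraries a group limit precision.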
